A study of Rattus norvegicus with 30 samples.

Results

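The Cyp3a family of the rat was examined in cultured hepatocytes exposed to diisononyl phthalate (DINP), a plasticiser. Its members were the probe sets that the platform annotation mapped to 1 gene only, that gene being Cyp3a2, Cyp3a9, Cyp3a18 or Cyp3a23-3a1. There were 4 such probe sets, 1 for each gene, of 31042 on the array once control probe sets were set aside. All 4 were bright enough to be among the 18625 probe sets tested. No other Cyp3a gene was named by a probe set here, so Cyp3a62, Cyp3a73, Cyp3a2l1 and Cyp3a71-ps, which the reference gene table also places in the family, were not analysed.

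Hepatocytes of male Sprague Dawley rats, thawed from frozen stock and grown on collagen beneath Matrigel, were dosed on day 3 of culture and harvested for RNA after 24 or 48 h. The 30 arrays form 6 groups of 5 wells: DINP at 25 mM, DINP at 100 mM and the vehicle, 1% DMSO, each at 48 h and at 24 h. All groups share the strain, the sex and the medium. The sample titles name DMSO for the vehicle groups only. The unit mM is given as the labels have it, and whether it is the intended one could not be checked. Each well was a culture of its own per the labels, which name no donor animals, so p-values measure the spread between wells. A change between 24 and 48 h joins time in culture with time under the treatment.

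CYP3A enzymes are haem proteins of the endoplasmic reticulum that oxidise a wide range of drugs and steroids. They draw electrons from P450 reductase. Their genes are classic targets of the pregnane X receptor (PXR, gene Nr1i2), a nuclear receptor that senses foreign compounds and binds DNA with the retinoid X receptor, and they respond to glucocorticoids as well. In the adult rat liver Cyp3a2 and Cyp3a18 are known as male-predominant forms, Cyp3a9 is known as a female-predominant form, and Cyp3a23-3a1 is the form known for strong induction by synthetic steroids such as dexamethasone. Hepatocytes in culture are known to lose P450 expression with time.

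All 4 genes lie on chromosome 12. In the order along the chromosome Cyp3a18 came first, then Cyp3a2 and Cyp3a23-3a1 with 0 protein-coding genes between them, and then Cyp3a9, which 114 protein-coding genes separate from Cyp3a23-3a1. The windows around their starts are shown because PXR is known to bind direct repeats near the start of rat Cyp3a genes and because the members' values differed. Binding was not measured here. RefSeq (build GRCr8) gives 300 bases for each of the 4 genes, 250 before the annotated start and 50 from it on. Capitals mark a direct repeat of the hexamer AGTTCA with 3 bases between its copies, on the opposite strand, in Cyp3a2 and Cyp3a23-3a1, and single AGTTCA hexamers, on either strand, in Cyp3a18 and Cyp3a9.
Cyp3a2 (chr12:14343808-14344107, minus strand): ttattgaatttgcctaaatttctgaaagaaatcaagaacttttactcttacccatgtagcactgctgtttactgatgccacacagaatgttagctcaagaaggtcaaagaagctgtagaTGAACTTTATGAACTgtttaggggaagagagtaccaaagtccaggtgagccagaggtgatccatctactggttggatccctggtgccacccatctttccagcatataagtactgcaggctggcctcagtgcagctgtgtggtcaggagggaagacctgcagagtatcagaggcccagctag
Cyp3a23-3a1 (chr12:14398754-14399053, minus strand): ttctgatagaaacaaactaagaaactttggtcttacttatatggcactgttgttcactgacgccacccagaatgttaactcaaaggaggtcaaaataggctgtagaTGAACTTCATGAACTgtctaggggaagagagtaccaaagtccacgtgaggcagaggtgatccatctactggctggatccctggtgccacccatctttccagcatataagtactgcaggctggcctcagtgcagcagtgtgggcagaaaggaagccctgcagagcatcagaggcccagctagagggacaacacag
Cyp3a18 (chr12:13994062-13994361, plus strand): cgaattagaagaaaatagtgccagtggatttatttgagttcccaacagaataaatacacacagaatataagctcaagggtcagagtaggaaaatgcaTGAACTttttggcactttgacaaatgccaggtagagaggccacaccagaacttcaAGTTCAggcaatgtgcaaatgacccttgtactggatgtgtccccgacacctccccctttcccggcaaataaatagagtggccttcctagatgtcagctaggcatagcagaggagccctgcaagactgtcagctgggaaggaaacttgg
Cyp3a9 (chr12:21960111-21960410, minus strand): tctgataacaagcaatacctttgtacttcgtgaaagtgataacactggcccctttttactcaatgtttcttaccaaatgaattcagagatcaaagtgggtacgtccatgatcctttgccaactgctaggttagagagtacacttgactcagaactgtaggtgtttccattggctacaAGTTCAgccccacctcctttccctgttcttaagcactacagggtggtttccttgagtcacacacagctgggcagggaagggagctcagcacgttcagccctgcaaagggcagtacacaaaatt

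The motifs were searched on both strands, and only exact copies of the hexamers were counted. The repeat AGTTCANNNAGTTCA, a form of the spacing known as DR3 that PXR is known to bind, was found at -131 to -117 of Cyp3a2 and at -144 to -130 of Cyp3a23-3a1. No other of the 33469 promoter windows of this length holds it, so the share is 0.00598%. Any DR3 of AGGTCA or AGTTCA was found in 14 windows (0.0418%), and a single hexamer of either kind in 9322 (27.9%). Exact repeats of these hexamers spaced by 1 (DR1, 0.0956% of windows) or by 4 (DR4, 0.0179%), and exact everted repeats spaced by 6 (ER6, 0.00598%), were in none of the 4 windows. A hexamer AGGTCA lay upstream of the DR3 in both genes that have it, at -150 to -145 of Cyp3a2 and at -164 to -159 of Cyp3a23-3a1. It overlapped no other exact match. In Cyp3a23-3a1 the letters TTAACT stood 6 bases before this AGGTCA. They differ by 1 letter from TGAACT, so this stretch is a near match to an ER6 and was not counted. Near matches were not searched for in any window. Cyp3a18 had AGTTCA at -153 to -148 and at -98 to -93, and Cyp3a9 had it at -73 to -68. These 2 windows held no DR3. A match describes letters only. The windows of Cyp3a2 and Cyp3a23-3a1 were identical at 80.6% of aligned positions, and the other 5 pairs at 54.2% to 58.7%.

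**Figure D1:**
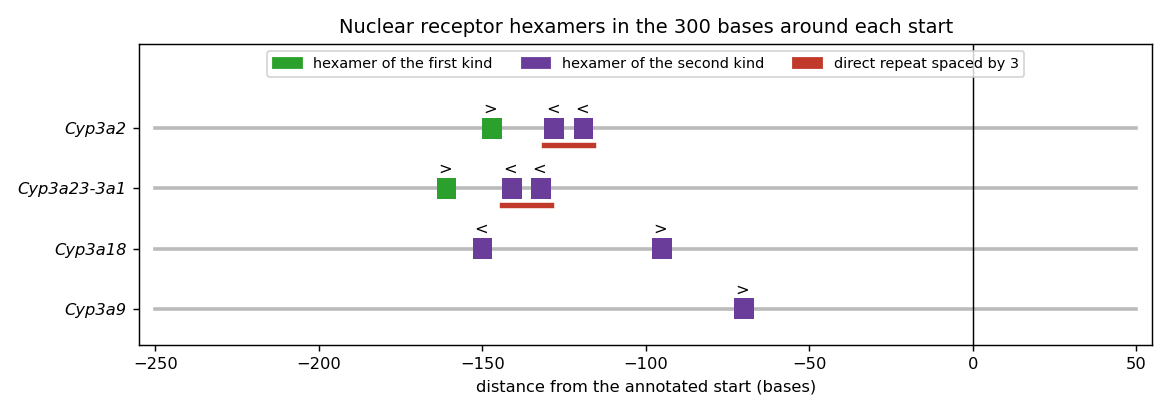
Motif matches in the window of each Cyp3a gene, by distance from the annotated start in bases. Boxes are single hexamers, green for AGGTCA (called the first kind) and purple for AGTTCA (the second kind), with arrowheads for the strand, and the red bar is the direct repeat spaced by 3, which is drawn for Cyp3a2 and Cyp3a23-3a1.

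At 48 h, 3 of the 4 Cyp3a probe sets were higher in DINP cells than in vehicle cells at 25 mM, and the same 3 at 100 mM. They were Cyp3a2, Cyp3a23-3a1 and Cyp3a18. Over all probe sets tested, 17.9% were called at 25 mM and 14.6% at 100 mM, and 7.41% and 6.49% were called as higher. A probe set is called here where its adjusted p from limma is under 0.05. At 24 h, 1 of the 4 was called at 25 mM (Cyp3a23-3a1, higher), against 13.3% of all probe sets, and 0 at 100 mM, against 12.3%. At 100 mM and 24 h, 2 of the 4 had an unadjusted limma p under 0.05, Cyp3a23-3a1 (0.0111) and Cyp3a9 (0.0143). They ranked 2758th and 2975th by p of the 18625 probe sets, so at least 2975 probe sets passed this unadjusted threshold. The exact permutation test described with Cyp3a9 called 1 of the 4. That test was run on the members only, so it has no share over all probe sets to set beside this count. The comparisons of both doses share their vehicle arrays, so their results are not independent.

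The change from 24 to 48 h separated the members further. In vehicle cells 3 of the 4 were lower at 48 h than at 24 h (Cyp3a2, Cyp3a18 and Cyp3a9), against 14.4% of all probe sets called over that time and 7.68% called as lower. In 25 mM cells 2 of the 4 were called over time, Cyp3a23-3a1 as higher and Cyp3a9 as lower, against 14.6% of all probe sets. In 100 mM cells the same 2 were called in the same directions, against 8.89%. Cyp3a2 and Cyp3a18 were called as lower over time in vehicle cells and were not called over time at either dose.

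Cyp3a2 held its signal in DINP cells and dropped in vehicle cells between the times. At 48 h its signal was 6572, 4906, 6553, 6858 and 8004 in the 25 mM wells, 5315, 3698, 6164, 5059 and 6260 in the 100 mM wells, and 2491, 1976, 2150, 2105 and 1602 in the vehicle wells. Every DINP well of either dose lay above every vehicle well at this time. At 24 h it was 6684, 6908, 8300, 6962 and 7014 in the 25 mM wells, 4038, 5890, 5599, 6100 and 4241 in the 100 mM wells, and 4766, 6209, 7415, 5872 and 5239 in the vehicle wells. At this earlier time the ranges of both doses overlapped that of the vehicle.

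At 48 h the mean signal of Cyp3a2 was 6579 ± 1108 at 25 mM, 5299 ± 1036 at 100 mM and 2065 ± 321 in the vehicle (SD, n = 5 each). The difference from the vehicle was 1.66 ± 0.14 on the log2(signal + 16) scale at 25 mM, 3.16-fold (adjusted p = 6.73e-11), and 1.34 ± 0.14 at 100 mM, 2.54-fold (adjusted p = 9.5e-09). Errors beside log2 differences are limma's standard errors throughout, with 5 arrays a group. The exact 2-sided permutation test gave p = 0.0079 at either dose, the smallest that 5 arrays against 5 allow, and 0.018 adjusted over the 16 such tests. At 24 h the difference was 0.29 ± 0.14 at 25 mM, with a 95% interval of 0.01 to 0.58 and an adjusted p of 0.188 from limma, and -0.19 ± 0.14 at 100 mM, with an interval of -0.48 to 0.09 and an adjusted p of 0.436. The exact permutation p at 25 mM and 24 h was 0.04, or 0.064 after adjustment.

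Over time, Cyp3a2 in vehicle cells fell by 1.51 on the log2 scale, a signal 2.84-fold lower at 48 h (SE 0.14, adjusted p = 3.26e-09), which ranked 29th by p of the 18625 probe sets. The change over the same time was -0.14 ± 0.14 in 25 mM cells (95% interval -0.42 to 0.15, adjusted p = 0.588) and 0.03 ± 0.14 in 100 mM cells (interval -0.26 to 0.32, adjusted p = 0.936). The larger difference from the vehicle at 48 h therefore arose with a lower vehicle signal, and no rise in DINP cells was detected. In RNA from whole wells, fewer cells of a type and less RNA per cell cannot be told apart.

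The test that the DINP effect itself differed between the times called Cyp3a2 at both doses. The effect was larger at 48 h by 1.37 ± 0.20 at 25 mM (95% interval 0.96 to 1.77, adjusted p = 6e-04) and by 1.54 ± 0.20 at 100 mM (interval 1.13 to 1.94, adjusted p = 8.66e-05). Of all probe sets, 0.242% and 0.0644% were called in these comparisons, and Cyp3a2 ranked 3rd and 2nd by p. It was 1 of the 4 members called at each dose.

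**Figure D2:**
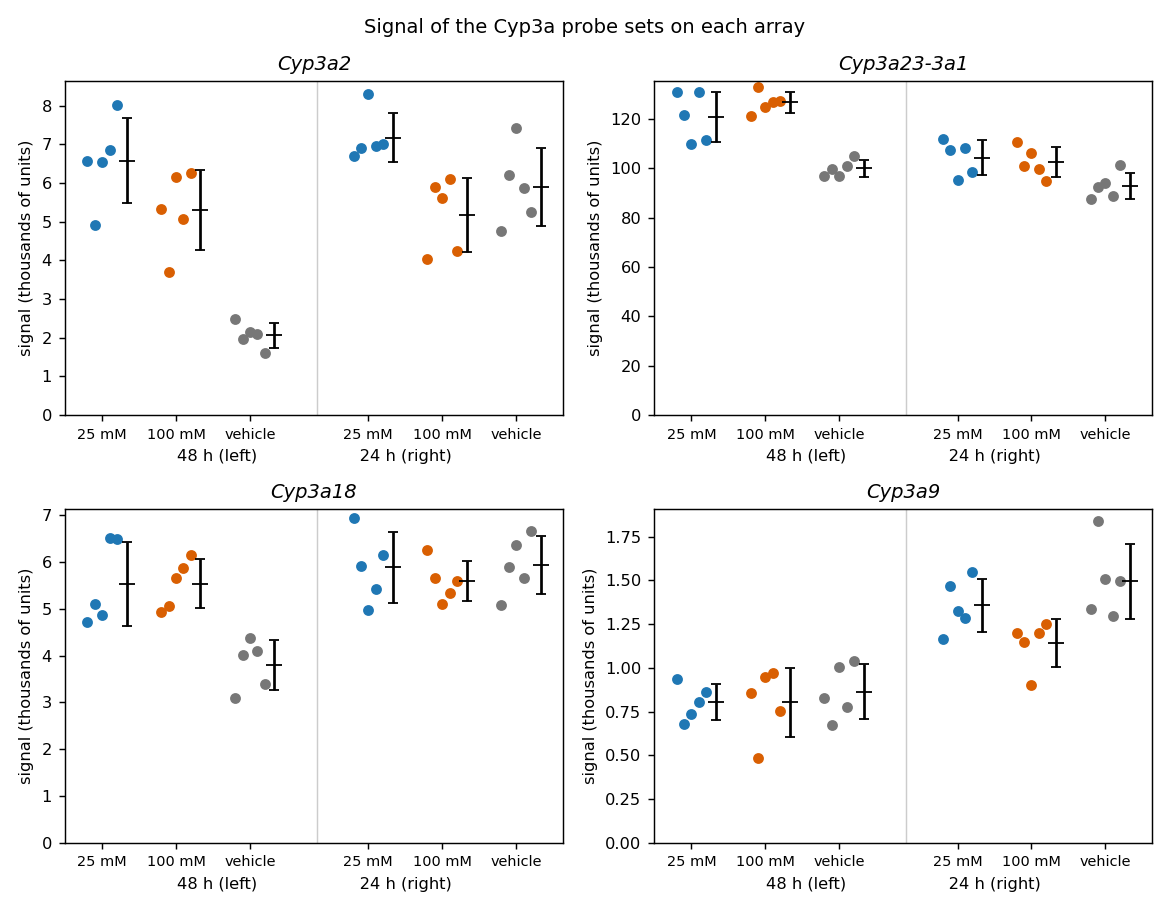
Signal, scaled down on the axis as its label says, of each Cyp3a probe set on every array, with 48 h left and 24 h right in each panel and the groups 25 mM, 100 mM and vehicle in that order. Points are wells and bars are the mean ± SD of 5 wells. The vehicle points of Cyp3a2 and Cyp3a18 at 48 h sit below all DINP points of that time, while those of Cyp3a9 are low at 48 h in every treatment.

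Cyp3a18, a steroid hydroxylase, was likewise lower in vehicle cells at 48 h, by less than Cyp3a2. At 48 h its signal was 4710, 5100, 4866, 6518 and 6488 in the 25 mM wells, 4941, 5056, 5669, 5882 and 6156 in the 100 mM wells, and 3084, 4006, 4377, 4090 and 3398 in the vehicle wells. Here too every DINP well lay above every vehicle well. At 24 h the 25 mM wells gave 6947, 5923, 4970, 5425 and 6162, the 100 mM wells 6258, 5653, 5099, 5346 and 5601, and the vehicle wells 5084, 5901, 6356, 5664 and 6672. The 3 groups overlapped at this time.

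At 48 h the mean of Cyp3a18 was 5536 ± 893 at 25 mM, 5541 ± 526 at 100 mM and 3791 ± 532 in the vehicle (SD, n = 5 each). The log2 difference from the vehicle was 0.54 ± 0.10 at 25 mM (1.46-fold, adjusted p = 0.00021) and 0.55 ± 0.10 at 100 mM (1.47-fold, adjusted p = 0.000204). The exact permutation test gave 0.0079 at either dose, adjusted 0.018. At 24 h the differences were -0.02 (95% interval -0.23 to 0.20) and -0.08 (interval -0.29 to 0.13), with adjusted p of 0.955 and 0.687.

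Cyp3a18 in vehicle cells fell by 0.65 on the log2 scale over time (SE 0.10, adjusted p = 4.13e-05). Over the same time the change was -0.09 in 25 mM cells (95% interval -0.30 to 0.12) and -0.02 in 100 mM cells (interval -0.23 to 0.20), with adjusted p of 0.622 and 0.961. The DINP effect was larger at 48 h by 0.56 ± 0.15 at 25 mM and by 0.64 ± 0.15 at 100 mM. Neither value passed the threshold over all probe sets (adjusted p = 0.125 and 0.0934, unadjusted 0.000598 and 0.000133), so a dependence of the effect on time was not called for this gene.

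Cyp3a23-3a1, the dexamethasone-inducible form, was higher in DINP cells at 48 h by small amounts, and its vehicle level was not called as changed. At 24 h it was called as higher at 25 mM and was not called at 100 mM. At 48 h its signal was 130931, 121744, 109777, 131052 and 111707 in the 25 mM wells, 121299, 133161, 125061, 127131 and 127452 in the 100 mM wells, and 96911, 99685, 97007, 101180 and 105126 in the vehicle wells. Every DINP well lay above every vehicle well. At 24 h it was 112105, 107281, 95474, 108313 and 98504 in the 25 mM wells, 110526, 100911, 106421, 99963 and 94973 in the 100 mM wells, and 87642, 92402, 94193, 88866 and 101290 in the vehicle wells. The brightest vehicle well lay above 2 of the 25 mM wells and 3 of the 100 mM wells at this time.

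The log2 difference of Cyp3a23-3a1 from the vehicle at 48 h was 0.27 ± 0.05 at 25 mM (1.21-fold, adjusted p = 0.000272) and 0.34 ± 0.05 at 100 mM (1.27-fold, adjusted p = 1.28e-05), with an exact permutation p of 0.0079 at each dose, adjusted 0.018. At 24 h it was 0.17 ± 0.05 at 25 mM (adjusted p = 0.0313) and 0.14 ± 0.05 at 100 mM (adjusted p = 0.075). The 24 h call is weak. The exact permutation test gave 0.032 and 0.04 at 24 h, both 0.064 after adjustment, and the limma call at 25 mM was lost under several alternatives, with an adjusted p between 0.0106 and 0.0959 over the 20 run.

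Over time Cyp3a23-3a1 was higher at 48 h by 0.21 ± 0.05 in 25 mM cells (adjusted p = 0.00532), a call that median centring of the arrays ended (0.15, adjusted p = 0.164), and by 0.31 ± 0.05 in 100 mM cells (adjusted p = 0.000172). The change in vehicle cells was 0.11 ± 0.05 (95% interval 0.00 to 0.22, adjusted p = 0.193). The DINP effect was larger at 48 h by 0.11 (interval -0.05 to 0.26, adjusted p = 0.782) at 25 mM and by 0.20 (interval 0.05 to 0.35, adjusted p = 0.614) at 100 mM, neither of which was called. Its signals lay near the top of the scale, where the brightest probe set of any array read 174316, and whether the scale compresses its differences was not tested.

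Cyp3a9, the female-predominant form, was lower at 48 h than at 24 h in every treatment. At 48 h its signal was 938, 678, 736, 804 and 864 in the 25 mM wells, 858, 485, 945, 972 and 753 in the 100 mM wells, and 830, 673, 1006, 773 and 1040 in the vehicle wells. At 24 h it was 1163, 1466, 1325, 1283 and 1548 in the 25 mM wells, 1201, 1146, 904, 1197 and 1251 in the 100 mM wells, and 1338, 1842, 1509, 1295 and 1495 in the vehicle wells. Within the 25 mM and the vehicle groups every 48 h well was below every 24 h well, and in the 100 mM group the ranges overlapped.

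Cyp3a9 fell by 0.75 on the log2 scale over time in 25 mM cells (SE 0.15, adjusted p = 0.00063), by 0.53 in 100 mM cells (SE 0.15, adjusted p = 0.0203) and by 0.79 in vehicle cells (SE 0.15, adjusted p = 0.000351). The call at 100 mM was lost without replicate 2 of the 48 h wells (-0.36, adjusted p = 0.0981) or without replicate 5 of the 24 h wells (-0.49, adjusted p = 0.0538). At 48 h the difference from the vehicle was -0.09 at 25 mM (95% interval -0.40 to 0.21) and -0.13 at 100 mM (interval -0.43 to 0.18), with adjusted p of 0.75 and 0.639. At 24 h it was -0.14 at 25 mM (interval -0.44 to 0.17, adjusted p = 0.643).

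At 100 mM and 24 h the tests of Cyp3a9 differed. All 5 DINP wells lay below all 5 vehicle wells, and the exact 2-sided permutation test gave p = 0.0079, or 0.018 adjusted over 16 tests. limma gave -0.39 ± 0.15 with an adjusted p of 0.0897 over all probe sets. The DINP effect on Cyp3a9 was not called as different between the times (0.04 at 25 mM, adjusted p = 0.985, and 0.26 at 100 mM, adjusted p = 0.924).

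**Figure D3:**
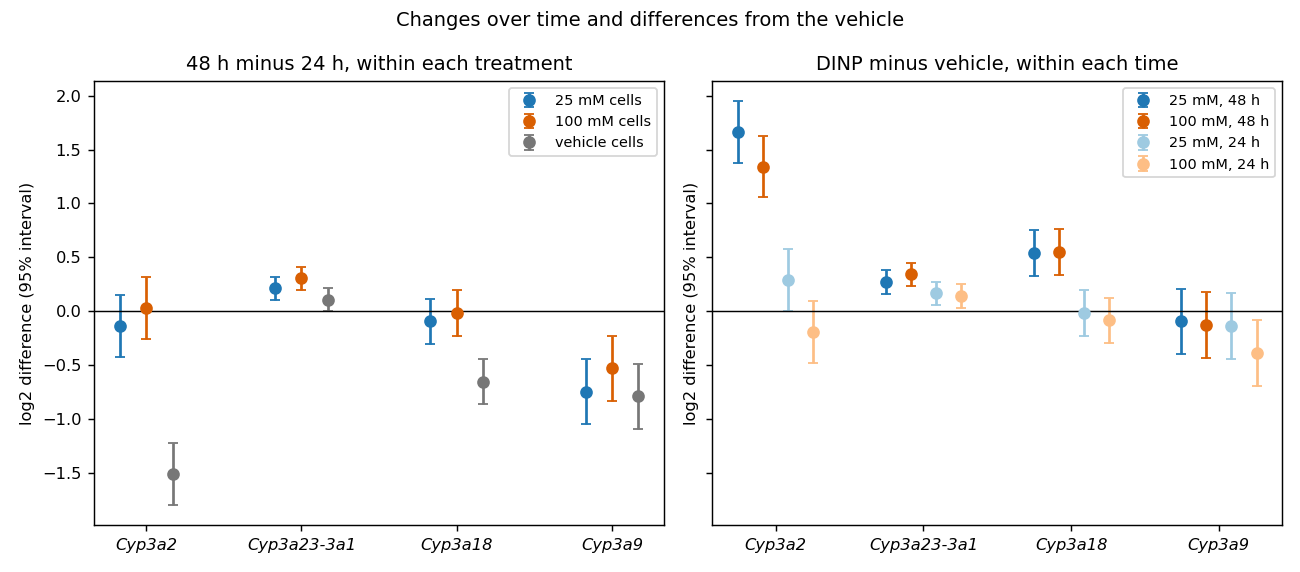
Log2(signal + 16) differences of the 4 Cyp3a probe sets with 95% intervals from limma, 5 arrays a group. The left panel gives 48 minus 24 h in each treatment and the right panel DINP minus vehicle at each time. In the left panel Cyp3a2 is at -1.51 in vehicle cells and near 0 at both doses, and in the right panel it is at 1.66 and 1.34 at 48 h.

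The difference at 48 h is, by arithmetic, the difference at 24 h plus the change over time in DINP cells minus the change over time in vehicle cells. For Cyp3a2 at 25 mM these terms were 0.29, -0.14 and -1.51, and at 100 mM -0.19, 0.03 and -1.51. For Cyp3a18 they were -0.02, -0.09 and -0.65 at 25 mM, and -0.08, -0.02 and -0.65 at 100 mM, so for both genes the vehicle term was the largest. For Cyp3a23-3a1 they were 0.17, 0.21 and 0.11 at 25 mM, and 0.14, 0.31 and 0.11 at 100 mM, and the DINP term was the largest in size. At 25 mM the 24 h term and the DINP term lay within 1 SE of each other, and under median centring the order turned (0.24, 0.15 and 0.12), while at 100 mM it held (0.23, 0.34 and 0.12). For Cyp3a9 they were -0.14, -0.75 and -0.79 at 25 mM, and -0.39, -0.53 and -0.79 at 100 mM. The difference at 48 h thus went with a lower vehicle level for Cyp3a2 and Cyp3a18, and with a higher level in 100 mM cells for Cyp3a23-3a1. Of these genes, only Cyp3a2 had a DINP effect called as different between the times.

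The doses were not told apart for any member by limma. At 24 h, 0 of the 4 were called between 100 and 25 mM, against 0.0107% of all probe sets, and at 48 h 0, against 0.00537%. In each comparison 1 member, Cyp3a2, had an unadjusted limma p under 0.05 (0.00157 at 24 h and 0.0308 at 48 h). By p it ranked 21st of the 18625 probe sets at 24 h and 940th at 48 h. At least 940 probe sets thus passed this unadjusted threshold at 48 h. At 24 h fewer than 1654 passed it, the rank of Cyp3a9 with a limma p of 0.102. At 24 h all 100 mM wells of Cyp3a2 lay below all 25 mM wells, with a difference of -0.49 ± 0.14 (95% interval -0.77 to -0.20, adjusted p = 1). At 48 h the doses overlapped and differed by -0.32 ± 0.14 (interval -0.61 to -0.03, adjusted p = 0.61). For the other 3 members the largest difference between doses was -0.25 (Cyp3a9 at 24 h, interval -0.55 to 0.05). An adjusted p above the threshold does not show that the doses act alike.

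Among the receptors and liver transcription factors, 18 of the 23 genes listed were tested. At 48 h, 6 were higher and 3 lower at 25 mM, and 5 and 3 at 100 mM, against 9.78% and 12.1%, and 8.69% and 9.2%, of all 10604 genes. At 24 h, 3 were higher and 4 lower at 25 mM, and 3 and 3 at 100 mM, against 7.87% and 7.84%, and 7.54% and 7.02%, of all genes. The median of the list lay between -0.07 and 0.04 in these comparisons, and that of all genes between -0.06 and -0.03. Nr1i2, which encodes PXR, was higher in DINP cells in all 4 comparisons with the vehicle, by 0.41 ± 0.07 at either dose at 48 h (adjusted p = 4.77e-05 and 6.83e-05) and by 0.36 ± 0.07 and 0.34 ± 0.07 at 24 h (adjusted p = 0.000373 and 0.000764). In vehicle cells the change of Nr1i2 over time was 0.00 ± 0.07 (adjusted p = 0.989). There 0 of the 18 were higher at 48 h and 3 lower, against 9.49% and 7.92% of all genes. The 3 were Hnf4a, Nr2f2 (-0.32 ± 0.08) and the glucocorticoid receptor gene Nr3c1 (-0.26 ± 0.07, adjusted p = 0.00775). Lower at 25 mM than in the vehicle were the log2 means of Onecut1 at 24 h (8.22 against 9.13) and at 48 h (8.04 against 8.75). So were those of Ppargc1a at 48 h (8.96 against 9.68), Foxa2 at 24 h (11.39 against 11.90) and Nr3c1 at 24 h (12.29 against 12.60). The part of these genes in the Cyp3a values was not tested.

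Nr1i3, the constitutive androstane receptor, which acts on many of the same genes as PXR, was higher by 0.33 ± 0.07 at 25 mM and by 0.29 ± 0.07 at 100 mM at 48 h (adjusted p = 0.000557 and 0.00231). At 24 h its values were 0.10 and 0.13 and were not called. Cebpa, a transcription factor of the mature hepatocyte, was higher by 0.70 and 0.50 at 48 h, and at 24 h its values were 0.25 and 0.09, not called. The interaction with time was not called for Nr1i3 (adjusted p = 0.521 and 0.867) or for Cebpa (0.173 and 0.398). Nr1h4, the bile acid receptor, was higher in all 4 comparisons by 0.57 to 0.75. Hnf4a, a regulator of hepatocyte identity, was lower over time in vehicle cells by a log2 change of -0.31 ± 0.06 (adjusted p = 0.000707) and also in DINP cells (-0.23 at 25 mM and -0.25 at 100 mM). Of the 18, 0 had a DINP effect called as different between the times at either dose, against 0.358% and 0.113% of all genes.

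A list of 15 genes for electron supply and haem turnover of P450 enzymes, of which 14 were tested, includes Hmox1 and Hmox2, which break haem down. From 24 to 48 h, 6 were higher and 0 lower in 25 mM cells, 5 and 0 in 100 mM cells, and 5 and 0 in vehicle cells, against 8.9% and 9.07%, 6.31% and 5.1%, and 9.49% and 7.92% of all genes. The medians of the list were 0.17, 0.19 and 0.20, and those of all genes 0.03, 0.01 and 0.03. Alas1, the rate-limiting enzyme of haem synthesis, was higher at 48 h by 1.01 ± 0.11 in 25 mM cells, by 0.93 ± 0.11 in 100 mM cells and by 0.82 ± 0.11 in vehicle cells. Against the vehicle at 48 h Alas1 was called at 25 mM (0.39, adjusted p = 0.0107) and not at 100 mM (0.30, adjusted p = 0.0611).

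Por, the reductase that feeds electrons to CYP3A enzymes, was higher than in the vehicle at 25 mM by 0.25 ± 0.07 at 48 h and by 0.25 ± 0.07 at 24 h (adjusted p = 0.0191 and 0.0217). At 100 mM its values were 0.17 and 0.20 and were not called. In vehicle cells Por was higher at 48 h by 0.25 ± 0.07 (adjusted p = 0.0229), while Cyp3a2 and Cyp3a18 were lower there.

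Other genes known to respond to PXR or CAR did not share 1 direction. Of 23 listed, 14 were tested, and at 48 h 4 were higher and 2 lower at 25 mM, against 9.78% and 12.1% of all genes, and 3 and 2 at 100 mM, against 8.69% and 9.2%. At 24 h, 4 were higher and 4 lower at 25 mM, against 7.87% and 7.84%, and 4 and 3 at 100 mM, against 7.54% and 7.02%. Aldh1a1, a retinal dehydrogenase, was higher by 1.05 and 1.02 at 48 h and by 1.00 at either dose at 24 h. Abcc2, an exporter of conjugates into bile, was lower, by log2 differences of -0.90 and -0.84 at 48 h and of -0.76 and -0.70 at 24 h. In vehicle cells over time 8 of the 14 were higher and 1 lower, against 9.49% and 7.92% of all genes. The lower one was Cyp2c7 (-1.28 ± 0.12). The listed Cyp2b1, Cyp2b2 and Cyp2c6 were not among the 14. Cyp2c6v1, a name found on the array and absent from the list, had differences of 0.73 at 25 mM and 0.59 at 100 mM at 48 h. Its change over time in vehicle cells was -0.37.

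In this list the DINP effect was called as different between the times for 3 genes at 25 mM and for 1 at 100 mM, against 0.358% and 0.113% of all genes. Ces2c, a carboxylesterase, had an effect larger at 48 h by 0.51 ± 0.09 at 25 mM (adjusted p = 0.00263) and by 0.49 ± 0.09 at 100 mM (adjusted p = 0.0117). Unlike Cyp3a2, Ces2c was higher over time in vehicle cells (0.37 ± 0.06), and it was higher by more in DINP cells (0.89 at 25 mM and 0.86 at 100 mM). Gsta3, a glutathione transferase, was called at 25 mM in the same direction (0.56), and Thrsp, a lipogenic gene, in the other (-0.52).

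Among P450s of families 1 and 2, 24 of 32 genes were tested, and in vehicle cells over time 1 was higher and 7 lower, against 9.49% and 7.92% of all genes. In 25 mM cells 5 were higher and 7 lower, against 8.9% and 9.07%, and in 100 mM cells 4 and 8, against 6.31% and 5.1%. Cyp2c13, a male-specific form, was lower at 48 h in every treatment, by a log2 change of -2.07 ± 0.14 in 25 mM cells, -1.85 ± 0.14 in 100 mM cells and -2.29 ± 0.14 in vehicle cells. Cyp2c7 (-0.99, -0.92 and -1.28) and Cyp1a2 (-0.95, -1.19 and -1.02), an oxidase of aromatic amines, were lower over time in the same 3 treatments. These resembled Cyp3a9 rather than Cyp3a2 in direction. The interaction with time was called for 1 of the 24 at 25 mM and for 0 at 100 mM, against 0.358% and 0.113% of all genes. It was Cyp2a2, a male-predominant steroid hydroxylase, with 0.57 ± 0.12 at 25 mM (adjusted p = 0.0367) and 0.40 ± 0.12 at 100 mM (adjusted p = 0.398).

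Cyp2c11, the main male-specific form of rat liver, moved against Cyp3a2. It was lower in DINP cells at 48 h by log2 differences of -1.12 ± 0.13 at 25 mM and -0.93 ± 0.13 at 100 mM, and its change over time in vehicle cells was -0.07 ± 0.13 (adjusted p = 0.805). Of the bile acid and steroid P450s, 9 of 12 were tested, and at 48 h 2 were higher and 3 lower at 25 mM, against 9.78% and 12.1% of all genes, and 2 and 2 at 100 mM, against 8.69% and 9.2%. Cyp17a1, a steroid hydroxylase and lyase, was higher by 1.39 ± 0.14 at 25 mM and 1.34 ± 0.14 at 100 mM, and Cyp7a1, which starts bile acid synthesis, was lower (-0.52 and -0.76). Over time in vehicle cells 2 of the 9 were higher and 0 lower, against 9.49% and 7.92% of all genes.

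**Figure D4:**
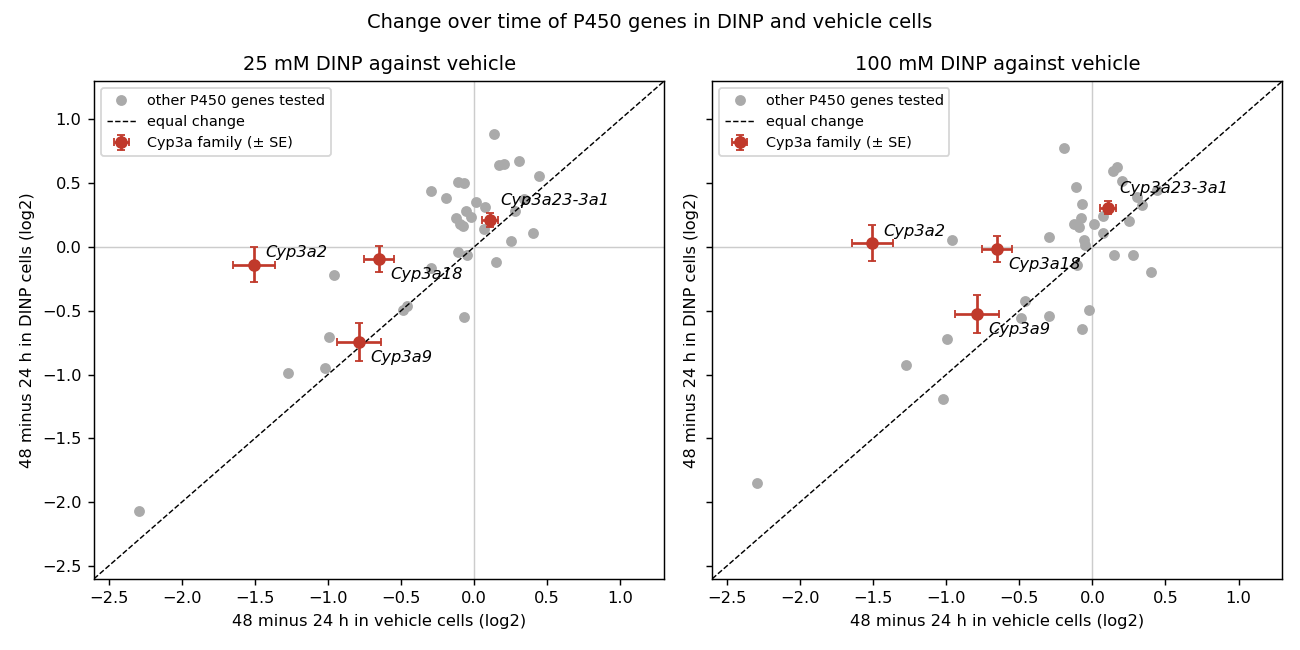
Change from 24 to 48 h, as a log2(signal + 16) difference, in DINP cells (vertical axis) against vehicle cells (horizontal axis) for the P450 genes tested. Cyp3a members are red with standard errors, other P450s are grey, and the dashed line marks an equal change. Cyp3a2 is the farthest member above the line, at -1.51 in vehicle cells and -0.14 or 0.03 in DINP cells, and Cyp3a9 lies near the line at 25 mM.

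Targets of the peroxisome proliferator-activated receptor alpha, the fatty acid sensor that phthalate esters are known to activate in rodents, were called as higher for 15 of the 15 tested (of 18 listed) in each comparison with the vehicle, against 7.54% to 9.78% of all genes. Their medians were 1.46 and 1.49 at 48 h and 1.57 and 1.61 at 24 h, at 25 and 100 mM. Ehhadh, an enzyme of peroxisomal beta-oxidation, was higher by 2.81 ± 0.10 and 2.65 ± 0.10 at 48 h, and by 3.05 ± 0.10 and 2.75 ± 0.10 at 24 h. Cyp4a1, a fatty acid hydroxylase, was higher by 2.51 and 2.38 at 48 h, and by 2.59 and 2.51 at 24 h. These differences were called at both times. The part of this receptor in the Cyp3a values was not tested.

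The genes whose profile over the 30 arrays was most like that of each member were found among 10600 genes by Pearson's r of log2(signal + 16). For Cyp3a2 they were Hsd17b6 (r = 0.87), Afm (0.86), Cyp2c6v1 (0.85), Apom (0.83) and Lamp2 (0.83). For Cyp3a18 they were Aadat (0.83), Uqcrc2 (0.83), Btbd1 (0.82), Pnpla8 (0.81) and Ttpa (0.81). For Cyp3a23-3a1 they were Ftcd (0.91), Chpt1 (0.91), Dhrs4 (0.90), Gsta4 (0.90) and Hsd17b11 (0.89). For Cyp3a9 they were Parp9 (0.84), Cyp2c13 (0.84), Nfkbiz (0.84), Lipc (0.83) and C6 (0.83). The lists of 5 share no gene. The r describes arrays that share the 6 groups and the culture, so a common response to dose and time enters it.

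Afm, which encodes the vitamin E-binding protein afamin, also fell into a small set with Cyp3a2 by the tests. It was 1 of 6 genes called as lower over time in vehicle cells with a DINP effect larger at 48 h at both doses, 0.0322% of the probe sets tested. The others were Apoa2, Apon, Bdh1 and Fabp1, beside Cyp3a2 itself. Of the 6, only Cyp3a2 was called over time at neither dose. Cyp3a23-3a1 was 1 of 164 probe sets (0.881%) called as higher over time at both doses and not called in vehicle cells, and Cyp3a9 was 1 of 517 (2.78%) called as lower over time in all 3 treatments. These groupings were made after the members' values were seen and are descriptions.

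The arrays were alike in their overall scale, with a trimmed mean of 1500.65 to 1500.76 and correlations within a group of 0.9656 to 0.977. Replicate 1 of the vehicle at 48 h stood apart from its group on 489 probe sets, against 160 to 339 for every other array. Without it the Cyp3a2 difference at 48 h was 1.73 at 25 mM and 1.41 at 100 mM, and the vehicle change over time was -1.58. The control probe set for 5S ribosomal RNA read 1533.0 to 2048.8 at 25 mM, 1055.6 to 1928.8 at 100 mM and 736.3 to 992.5 in the vehicle at 48 h, which moved with the treatment, and its part in the results was not tested.

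Hepatocyte markers were present in all groups, with 9 of 10 tested and 0 below the brightness filter. At 48 h their summed signal was 692629 to 821689 at 25 mM, 727738 to 879925 at 100 mM and 694012 to 859654 in the vehicle, so the groups overlapped. The bright markers carry that sum, and single markers differed. Of the 9 tested, at 48 h 1 was higher and 2 lower at 25 mM, and 0 and 3 at 100 mM. Of all genes, 9.78% and 12.1% were higher and lower at 25 mM, and 8.69% and 9.2% at 100 mM. Tat, a glucocorticoid-responsive enzyme of tyrosine breakdown, was lower (-0.82 and -0.83), as was the plasma protein gene Ahsg (-0.38 and -0.26), and Hnf4a was higher at 25 mM (0.25). Of 9 stellate cell or fibroblast markers 6 were tested, and Col1a2, Lrat and Pdgfrb lay below the filter. Their sum at 48 h was 8936 to 10552 at 25 mM, 9519 to 11843 at 100 mM and 12841 to 21266 in the vehicle, where it did not overlap with DINP. At 24 h it was 8003 to 9214, 8744 to 10011 and 14271 to 15108. Vim, which leads the sum, was called as lower in all 4 comparisons (-1.09 and -0.81 at 48 h, -1.01 and -0.79 at 24 h). It was the only one of the 6 called in 3 of the comparisons, and Acta2 joined it at 100 mM and 48 h (-0.52). The other 4 tested markers were called in none of the 4 comparisons. Of all genes, 12.1% and 9.2% were called as lower at 25 and 100 mM at 48 h, and 7.84% and 7.02% at 24 h. The sum of the 4 tested macrophage markers of 8 was 9387 to 11656 at 25 mM, 10687 to 11235 at 100 mM and 11032 to 12744 in the vehicle at 48 h, and that of the 2 bile duct markers of 6 was 8747 to 11661, 10341 to 12616 and 11503 to 14238. The 3 tested endothelial markers of 7 summed to 1071 to 1581, 966 to 1617 and 984 to 1418. Against the vehicle, 1 macrophage marker was called as lower at 25 mM at both times. At 48 h 1 bile duct marker was called as lower at either dose. These compare with the shares of all genes given above. None of the tested endothelial markers was called, and no marker of these cell types was called as higher. The part of these cell types in the Cyp3a values was not tested. Probes of closely related Cyp3a transcripts can bind each other's RNA. Probe sequences were not used here.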

How the data were processed

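The authors deposited 1 table of linear signal intensities per probe set for the 30 arrays, which the submitters' processing notes credit to MAS5 with no version and which carry no detection calls. Each array had been scaled to 1 trimmed mean. From these intensities log2(signal + 16) was computed, which understates changes of dim genes. The 57 control probe sets of 31099 were dropped, and probe sets at or above the 40th percentile of mean signal were tested (18625). Gene symbols came from the platform annotation, updated through the Entrez ID for 20758 probe sets. Of all probe sets, 20826 had 1 symbol, 436 several and 9780 none here. Each gene outside the family is given by the brightest of its tested probe sets. limma 3.58.1 in R 4.3.3 was fitted once to all 6 groups (24 residual degrees of freedom, trend on mean signal), with Benjamini-Hochberg adjustment within a comparison and a threshold of 0.05, and was tested on simulated data. Exact permutation tests of the members were made in Python 3.11.15 with scipy 1.17.1.

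Replicates were numbered in sample order. Named genes were the members, Nr1i2, Nr1i3, Por, Alas1, Hnf4a, Ehhadh, Cyp4a1 and Foxa2. Up to 3 called genes per list and comparison, and the 5 genes most like each member, were named too. The members and lists were chosen with earlier results of these data known. Alternatives were the added constant, the filter, quantile normalisation, median centring, no variance trend, array weights, only the groups compared, the array round as a block, and leaving out each array. For arrays, their number limits the precision, here 5 a group.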

Additional observations from a re-analysis of the deposited data

Results flagged for a closer look

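The DINP effect on Cyp3a2 differed between the times by the test of that difference, by 1.3677 at 25 mM and 1.5365 at 100 mM on the log2 scale (limma, adjusted p = 6e-04 and 8.66e-05, 5 arrays a group). Every DINP well lay above every vehicle well at 48 h, and at 24 h the wells of each dose overlapped those of the vehicle.

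In 2 of the 24 sets of 5 wells, 1 well lay far from the rest, where chance gives about 1 in 20. Cyp3a2 read 8300.1 in replicate 3 of the 25 mM wells at 24 h, and the other wells of that group read 6684 to 7014. Cyp3a9 read 903.6 in replicate 3 of the 100 mM wells at 24 h, and the others read 1146 to 1251.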

How the results depend on the processing

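The calls of Cyp3a2, Cyp3a23-3a1 and Cyp3a18 at 48 h at both doses, of Cyp3a2 and Cyp3a18 over time in vehicle cells, and of the Cyp3a2 effect between the times passed the threshold in the same direction under every alternative run, including the left-out arrays. The 24 h calls did not. Cyp3a23-3a1 at 25 mM kept a difference of 0.167 without the brightness filter, without the variance trend and with only the groups compared, with adjusted p of 0.0741, 0.0769 and 0.0572, so 0 members were called. Leaving out single arrays gave 0.1405 to 0.1988 and 0 to 1 members called. The call was lost without replicate 1, 2 or 4 of either group. At 100 mM it was called under median centring (0.2257) and array weights (0.1461), and over left-out arrays ran from 0.1154 to 0.1747, past the threshold without replicate 5 of either group. Cyp3a9 at 100 mM and 24 h was called with array weights (-0.4135) and with only the groups compared (-0.3853). The members called there were 1, 2 and 1 under median centring, array weights and only the groups compared, and 0 to 1 over left-out arrays. Over time, Cyp3a23-3a1 at 25 mM was not called under median centring (0.1515, 1 member called). Cyp3a9 at 100 mM was not called under median centring (-0.4939) or with only the groups compared (-0.5289), with 1 member called each, and ran from -0.6091 to -0.3621 over left-out arrays (1 to 2 members called). The cause of these changes was not tested, except that fewer arrays enter when groups or arrays are left out.

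Values near 0 and not called changed sign. Cyp3a18 at 25 mM and 24 h was 0.0591 under median centring and -0.0772 to 0.0433 over left-out arrays. Over time at 100 mM, Cyp3a18 was 0.02 under median centring (-0.0542 to 0.0264 over left-out arrays) and Cyp3a2 was -0.0018 with array weights (-0.0527 to 0.1543). The Cyp3a9 effect at 25 mM between the times was -0.0328 under median centring (-0.0419 to 0.1123), and Cyp3a9 at 100 mM and 48 h ran from -0.2107 to 0.0401. Between doses, Cyp3a23-3a1 at 24 h ran from -0.0555 to 0.0031, and at 48 h Cyp3a18 was -0.0059 under quantile normalisation (-0.0439 to 0.0729) and Cyp3a9 0.0146 under quantile normalisation and 0.0709 under median centring (-0.1119 to 0.133).

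Counts over all probe sets moved by over 1.5 times in some comparisons. The 25 mM effect between the times gave 45, and 13 under median centring. The 100 mM effect gave 12, and 24 under quantile normalisation, 25 with array weights and 10 to 21 over left-out arrays, with the highest without replicate 1 of the 48 h vehicle. Between doses there were 2 at 24 h and 0 with only the groups compared. At 48 h there was 1, and 0 without the variance trend or with only the groups compared, 2 with the replicate block and 0 to 4 over left-out arrays. The share of calls that were higher moved under median centring to 65.2% (against 43.9%) at 25 mM and 24 h, 70.8% (45.1%) at 100 mM and 24 h, 75.1% (44.6%) at 100 mM and 48 h, 24.9% (44%) over time at 25 mM, 59.9% (48.2%) over time at 100 mM, and 46.2% (66.7%) for the 25 mM effect between the times. For the 100 mM effect it was 50% (75%) under quantile normalisation. Median centring shifted the median of all probe sets by 0.1041 at 100 mM and 48 h.

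The array rounds, taken as a replicate block, changed no other call of a member, and Cyp3a2 at 25 mM and 48 h stood at 1.66 with the block. The labels do not say that rounds pair the wells. The number of arrays limits what is detectable.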
